A study of Mus musculus with 30 samples.

Results

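The loci described here are those of 9 genes of Nodal and BMP signalling in mouse embryonic stem cells: Nodal, Bmp4, Lefty1, Lefty2, Smad7, Skil, Id1, Id2 and Id3. The genes were named as ligands and targets of these pathways, and their loci were taken as the gene body with 20 kb to either side (GENCODE M21, GRCm38). All 9 genes were found among 21938 protein-coding genes. Of the 1428772 peaks in the 20 lists, 1727 (0.121%) overlapped at least 1 of the 9 windows, counted once each. The windows of the neighbouring genes Lefty1 and Lefty2 share 4.082 kb, and other genes reached by the windows include Eif4ebp2 (at Nodal), Tmem63a (at Lefty1), Gm15217 (at Bmp4) and Cox4i2 (at Id1).

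The study used chromatin immunoprecipitation and sequencing (ChIP-seq) in E14 mouse embryonic stem cells, an established line. Every sample carried the genotype CTCF AID, in which CTCF has an auxin-inducible degron, and was left without the auxin IAA (0 h) or given IAA for 12 h. CTCF and SMC1A were mapped in CTCF AID cells, with 1 library each at 0 h and at 12 h. The remodelers were mapped in cells with the genotypes CTCF AID and biotin-CHD4, biotin-CHD8, biotin-SMARCA4 or biotin-SMARCA5, with 2 libraries per remodeler and time (16 in all). All cells, treated or not, grew in serum-free medium with LIF and the inhibitors PD0325901 and CHIR99021, so all groups share that signalling background. The labels do not say whether the 2 libraries of a group came from separate cultures or whether a genotype is 1 clone, so the tests measure the spread between these libraries, which may be technical. There is no group that was given IAA without the degron, so effects of IAA itself and of CTCF loss cannot be told apart.

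Nodal is a ligand of the TGF-beta family that signals through activin receptors to SMAD2 and SMAD3, which bind DNA with partners such as FOXH1. Lefty1 and Lefty2 are secreted antagonists of Nodal and are themselves targets of it, which makes a feedback loop. BMP4 signals to SMAD1, SMAD5 and SMAD9, and the Id genes, whose products block basic helix-loop-helix factors, are its best known targets in embryonic stem cells, where they help LIF to sustain self-renewal. SMAD7 inhibits both branches at the receptors, and the Skil product SnoN is a corepressor that binds SMADs. CTCF is a zinc-finger protein that stops cohesin, of which SMC1A is a subunit, and the 4 remodelers use ATP to move or evict nucleosomes.

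The lists of the 16 remodeler libraries held 40880 to 187294 peaks, with median widths of 94 to 647 bp. They hold no read counts, so the sequencing depth is unknown and the number of libraries limits the precision. The second library of CHD4 stood apart from the first at both times, with 187294 peaks at 0 h and 159918 at 12 h, of median width 119 and 94 bp, against 111947 and 105001 peaks of 433 and 475 bp. CTCF had 29934 listed peaks before IAA and 2248 after it, and SMC1A 16724 and 10. Fold enrichments, −log10 p and −log10 q are the authors' own values, used here within a list only. The strength of a peak is given as its percentile, the share of peaks in its own list with a lower −log10 p. A locus with no listed peak may still hold signal below the authors' threshold.

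At 0 h, 20 CTCF peaks lay in the 9 windows, and 5 of them overlapped a CTCF peak of the 12 h list (25%, exact 95% interval 8.66 to 49.1%). Over all 29934 CTCF peaks the share was 7.44%. The 5 peaks stood 18.4 kb upstream of Nodal, 15.1 kb upstream of Lefty1, 18.8 kb upstream of Lefty2, 44.2 kb downstream of the Skil start and 4.69 kb downstream of the Id2 start, so 5 of the 8 loci with CTCF peaks had 1 such peak each. These 5 lay at percentiles 69.6 to 99.1 of the 0 h list, with fold enrichments of 14.2 to 45.2. The 15 others ranged from percentile 0.991 to 93.3. Peaks of the same strength in the whole list had a 12 h peak in 9.37% of cases on average, against 25% at the loci, and the exact interval of the loci contains 9.37%. The count fell to 1 of 20 (the Id2 peak, 5% against 2.80% of all peaks) when the 12 h peak had to cover at least 50% of the 0 h peak, and was 1 of 11 within 10 kb of the genes and 7 of 36 within 50 kb. With 1 library per time there is no replicate check of any of these values, and the intervals cover counting error over peaks only.

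**Figure D1:**
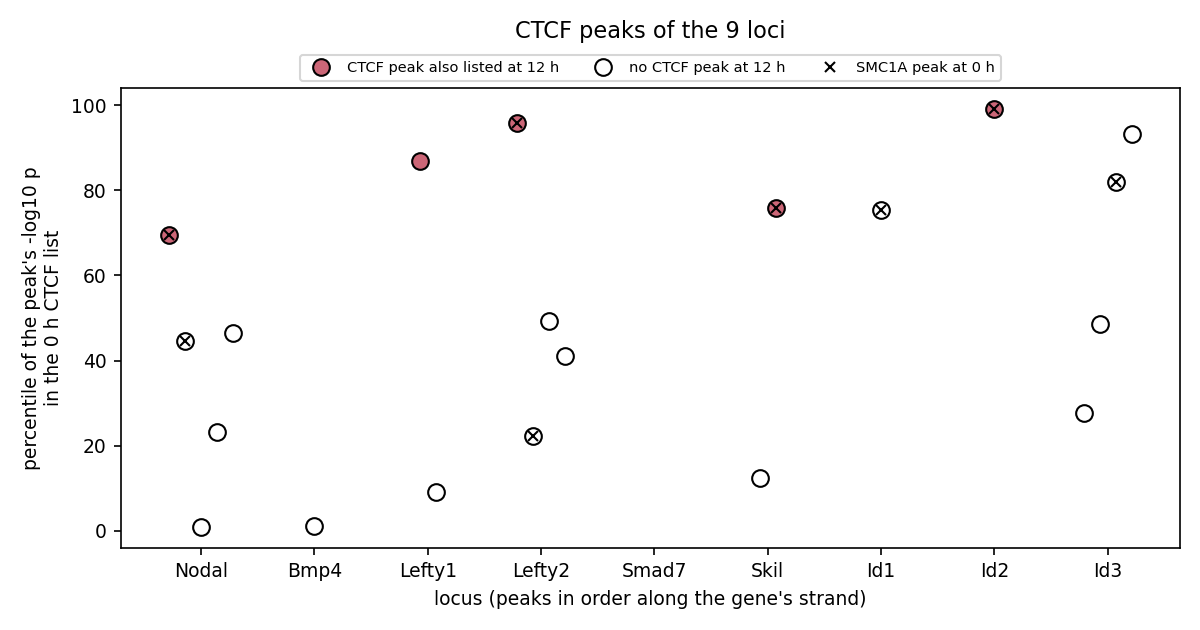
Strength of each 0 h CTCF peak of the 9 loci, as the percentile of its −log10 p in the 0 h list (y axis), by locus (x axis). Each circle is 1 peak of 1 library; filled circles also have a CTCF peak at 12 h and crosses mark a 0 h SMC1A peak. The 5 filled circles lie between 69.6 and 99.1, and Smad7 has no CTCF peak.

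The strongest of all was the peak 4.69 kb downstream of the Id2 start (chr12:25092134-25092694, intergenic), with a fold enrichment of 45.2 at 0 h and 21.6 at 12 h. It was at percentile 99.1 at 0 h and 96.1 at 12 h, so it was near the top of both lists. The peaks upstream of Lefty2 (chr1:180873998-180874605) and of Lefty1 (chr1:180919663-180920127), both intergenic, had 0 h fold enrichments of 28.1 and 25.4 and 12 h values of 7.74 and 6.55. The Lefty1 peak reached only percentile 13.8 of the 12 h list. Of the peaks with no 12 h counterpart, the strongest lay 20.2 kb and 16.8 kb downstream of the Id3 start, with fold enrichments of 25.0 and 22.8 and percentiles of 93.3 and 81.9. Id3 had 4 CTCF peaks at 0 h and none at 12 h. Id1 had 1, 6.37 kb downstream of its start, with a fold enrichment of 21.4 and none at 12 h. Bmp4 had 1 weak peak (fold 3.97, percentile 1.17) inside an intron of Gm15217, also without one at 12 h. Smad7 had no CTCF peak within its window at either time.

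SMC1A was listed at 12 places in the windows at 0 h and at none at 12 h. In the whole series 0.0598% of SMC1A peaks had a 12 h peak, and the exact 95% interval of the loci's share, 0 of 12, reaches 26.5%. Of the 12 peaks, 8 overlapped a CTCF peak (66.7%, against 81.7% of all SMC1A peaks). Seen from CTCF, 8 of the 20 peaks had SMC1A (40%, against 46.0% of all). Of the 4 SMC1A peaks away from CTCF, a pair lay at the Smad7 start, 0.684 kb upstream and 1.66 kb downstream of it, with fold enrichments of 4.55 and 4.00. The others were 11.9 kb upstream of Nodal (fold 4.40) and 4.31 kb downstream of the Id3 start (fold 3.34). The SMC1A peak with the highest percentile (85.5) lay 18.9 kb upstream of Lefty2, with a fold enrichment of 7.10, and the one with the highest fold enrichment (7.88) lay 44.2 kb downstream of the Skil start. Lefty1 and Bmp4 had no SMC1A peak. Of the 8 CTCF peaks with SMC1A, 4 had a 12 h CTCF peak, against 1 of the 12 without it, where all CTCF peaks gave 13.1 and 2.63%.

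The DNA under these peaks was read from the GRCm38 reference of RefSeq. A 19 bp model of the CTCF motif was built from part of the 0 h CTCF peaks themselves. Its threshold was set so that 5.00% of windows moved by 100 kb matched, so that share is no result. At this threshold 87.2% of all 0 h CTCF peaks matched, and 87.2% of those not used to build the model. Of the 20 peaks, 17 held a match. The sequences of 8 matches are shown, first those of all 5 peaks with a 12 h peak and then the 3 lost ones upstream of Nodal, which lie near the consensus. Capitals mark the 12 core positions of the motif.
Nodal -18.4 kb, 12 h peak, chr10:61399568-61399586, minus strand: CCACtAGGTGGCGctgaat
Lefty1 -15.1 kb, 12 h peak, chr1:180919905-180919923, plus strand: ACTGcAGGGGGCGcttctg
Lefty2 -18.8 kb, 12 h peak, chr1:180874304-180874322, plus strand: CCTGcTGGGGGCAgtgctg
Skil +44.2 kb, 12 h peak, chr3:31139211-31139229, minus strand: CCACtAGAGGGCGctcata
Id2 +4.69 kb, 12 h peak, chr12:25092426-25092444, plus strand: CCAGaAGGTGGCGctcggc
Nodal -15.3 kb, none at 12 h, chr10:61402677-61402695, minus strand: CCAGaAGAGGGCAtcagat
Nodal -14.4 kb, none at 12 h, chr10:61403637-61403655, minus strand: CCAGaAGAGGGCGtcagat
Nodal -0.383 kb, none at 12 h, chr10:61417584-61417602, minus strand: CCAGaAGAGGGCGccagat

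The consensus of the model is CCAGaAGAGGGCGccagat, and the Nodal match 0.383 kb upstream of the gene is identical to it. The 3 upstream Nodal matches without a 12 h peak scored at percentiles 92.6, 94.7 and 99.5 of the scores at all CTCF peaks. The 5 matches with a 12 h peak scored at percentiles 20.9 to 75.0, and the 12 without one spanned 13.4 to 99.5, the lowest being inside Nodal itself, so the 2 sets overlap. Over all CTCF peaks the median score was 17.4 with and 16.9 without a 12 h peak. The 3 upstream Nodal matches lie wholly in bases that the reference writes in lower case, which mark repeats. Of the 17 matches, 7 lay mostly in such bases (the 3 at Nodal, 1 each at Lefty2 and Skil and 2 at Id3), and 1 of these 7 had a 12 h peak, against 4 of the 10 others. Over all CTCF peaks with a match, 2.83% of 7349 in repeats and 9.93% of 18737 outside had a 12 h peak, and their median 0 h percentiles were 39.3 and 57.6. The weaker 0 h strength of the repeat sites moves with their share, and its part was not tested. This split was chosen after the values were seen, and the reference used here names no repeat family.

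Remodelers were listed at these CTCF sites (the summit with 100 bp to either side) in 77 of 160 library and site pairs at 0 h and in 65 of 160 at 12 h. The number of libraries with a peak was lower at 12 h at 9 of the 20 sites, higher at 5 and equal at 6. Over all CTCF sites it was lower at 46.0% and higher at 6.47%. In the exact stratified permutation test, in which time labels were exchanged within each remodeler, none of the 20 sites reached an unadjusted p of 0.05. The background was 1.71% of all sites with a lower and 0.01% with a higher occupancy at that level. No site of the 29934 passed after Benjamini-Hochberg adjustment, and 515 had an unadjusted p of at most 0.05. The lowest p at the loci was 0.0833, at the Nodal site 15.3 kb upstream. That site was occupied in 4 of 8 libraries at 0 h (both of CHD4, 1 each of CHD8 and SMARCA4) and in none at 12 h. The Nodal site 0.383 kb upstream and the Skil site 0.166 kb inside the gene, both at promoters, were occupied in all 8 libraries at both times. Neither had a CTCF peak at 12 h, and both were weak at 0 h (percentiles 23.3 and 12.5). The Skil site held no motif match. Remodeler peaks at the Nodal promoter were up to 7889 bp wide, so a wide promoter peak can count as occupancy of the site.

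CHD4 had a peak at 17 and 16 of the 20 CTCF sites at 0 h and at 13 and 5 at 12 h. The corresponding shares of all CTCF sites were 46.8 and 35.8% at 0 h and 22.7 and 14.2% at 12 h. The lowest value came from the library of 94 bp peaks, so peak width moves with it, and its part was not tested. CHD8 occupied 11 and 3 sites at 0 h and 9 and 5 at 12 h. SMARCA4 occupied 13 and 9 at 0 h and 10 and 12 at 12 h, and SMARCA5 4 and 4 at 0 h and 3 and 8 at 12 h. At the 20 sites, counts of the 2 times overlapped in CHD8, SMARCA4 and SMARCA5, and did not in CHD4. Over all CTCF sites the CHD8 shares did not overlap either, at 26.3 and 21.6% at 0 h and 16.2 and 13.0% at 12 h. The shares of all sites were 31.1 and 21.9%, then 21.5 and 24.8% for SMARCA4. For SMARCA5 they were 13.9 and 20.2%, then 13.9 and 10.3%.

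Across whole windows, the number of remodeler summits was scaled by the length of each list and compared between times on a log2 scale, after adding 0.5 to each count. None of the 9 genes passed the exact stratified permutation test, in which 4.66% of all genes had a lower and 2.93% a higher peak share at an unadjusted p of at most 0.05. Among all 21938 genes none passed after Benjamini-Hochberg adjustment, and 1666 had an unadjusted p of at most 0.05. The smallest p the exact permutation test can give, 0.00154, was reached by 73 genes, and the lowest adjusted p was 0.464. The mean log2 change was above 0 at 7 genes and below 0 at Skil (−0.05), and at Bmp4 it was 0.00 to 2 decimals. The median over the 9 was 0.19, against −0.07 over all genes. The lowest p values were at Lefty2 (0.0509) and Id3 (0.0540).

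**Figure D2:**
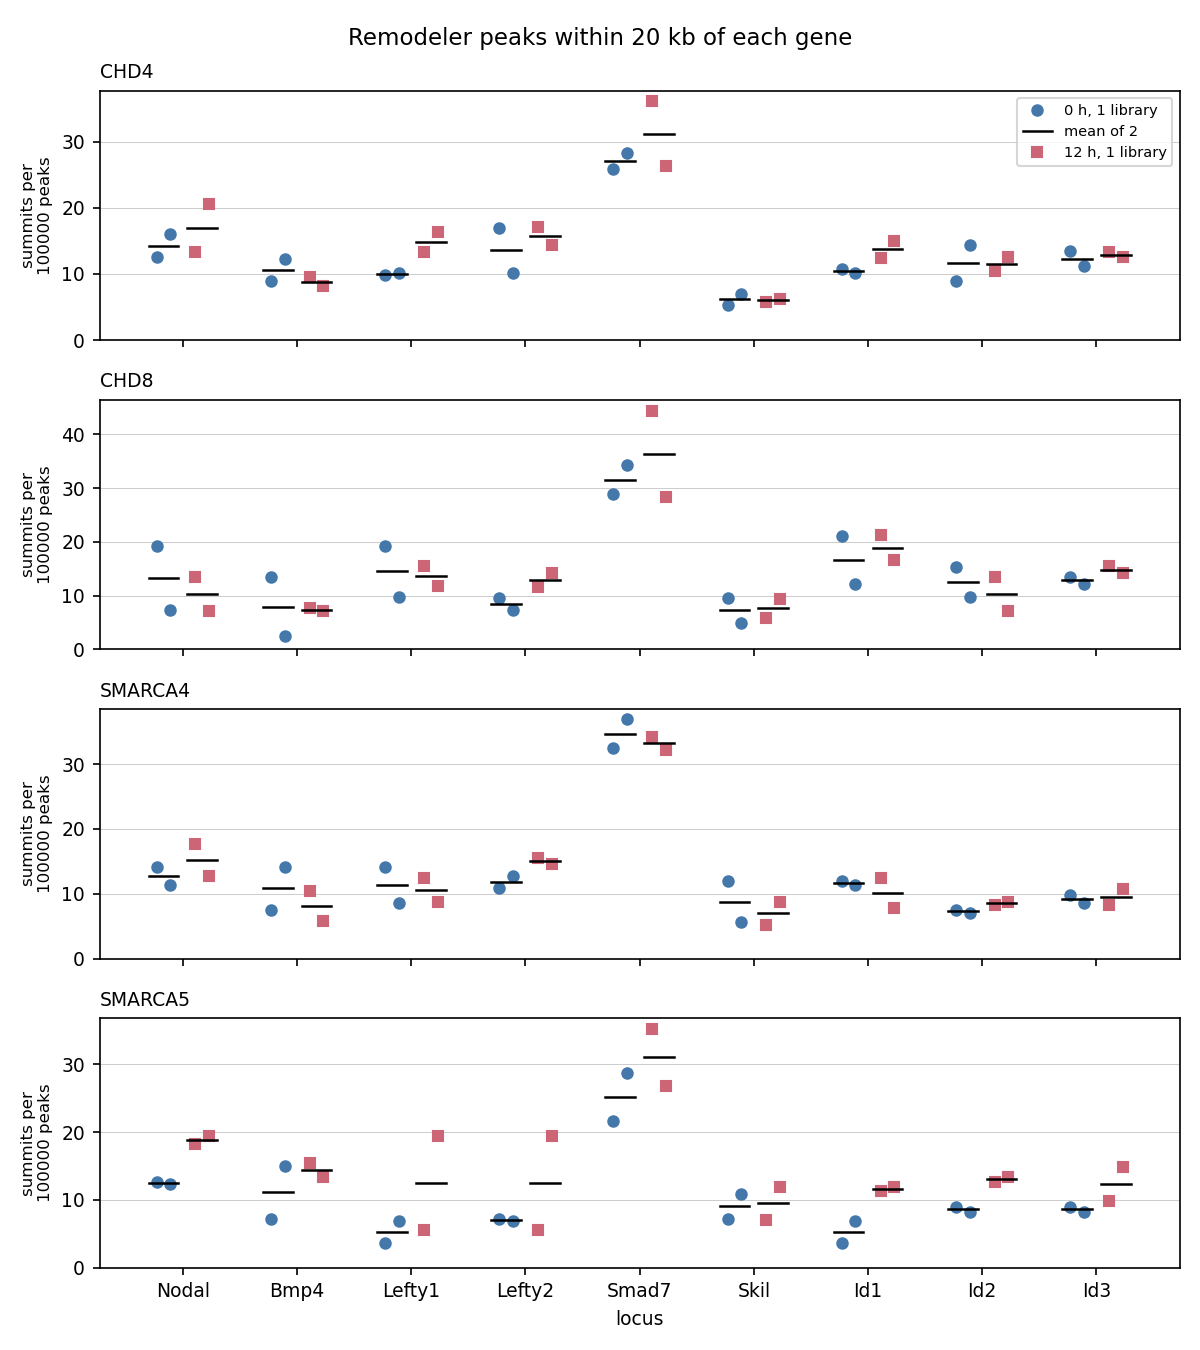
Remodeler peak summits within 20 kb of each gene per 100000 peaks of the library's list (y axis), by locus (x axis), in 4 panels by remodeler. Circles are 0 h and squares 12 h libraries, 2 of each, and bars their mean. Smad7 stands highest in each panel, with 25.9 to 36.2 in CHD4, and at most loci the values of the 2 times overlap.

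At promoters (500 bp to either side of any annotated start), the percentile of the strongest remodeler peak was compared in the same way, with 0 for a promoter without a listed peak. Of the 9 genes, Lefty1 alone reached an unadjusted p of 0.05, and it lay higher at 12 h. The background was 2.79% of 21851 genes with a higher and 1.46% with a lower rank, and 1 of 9 genes is too few to set apart from it. No gene passed after adjustment, and 930 had an unadjusted exact permutation p of at most 0.05. The median change over the 9 genes was 0.412 percentile points, and over all genes 0. In a library, 6 to 9 of the 9 genes had a promoter peak, against 42.2 to 64.55% of all genes. The medians therefore rest on unlike shares of bound promoters, and the background shares include the unbound genes. A percentile depends on the other peaks of its list, and the lists differ in length between libraries and times, so a difference in percentile describes a rank and shows no change in binding.

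**Figure D3:**
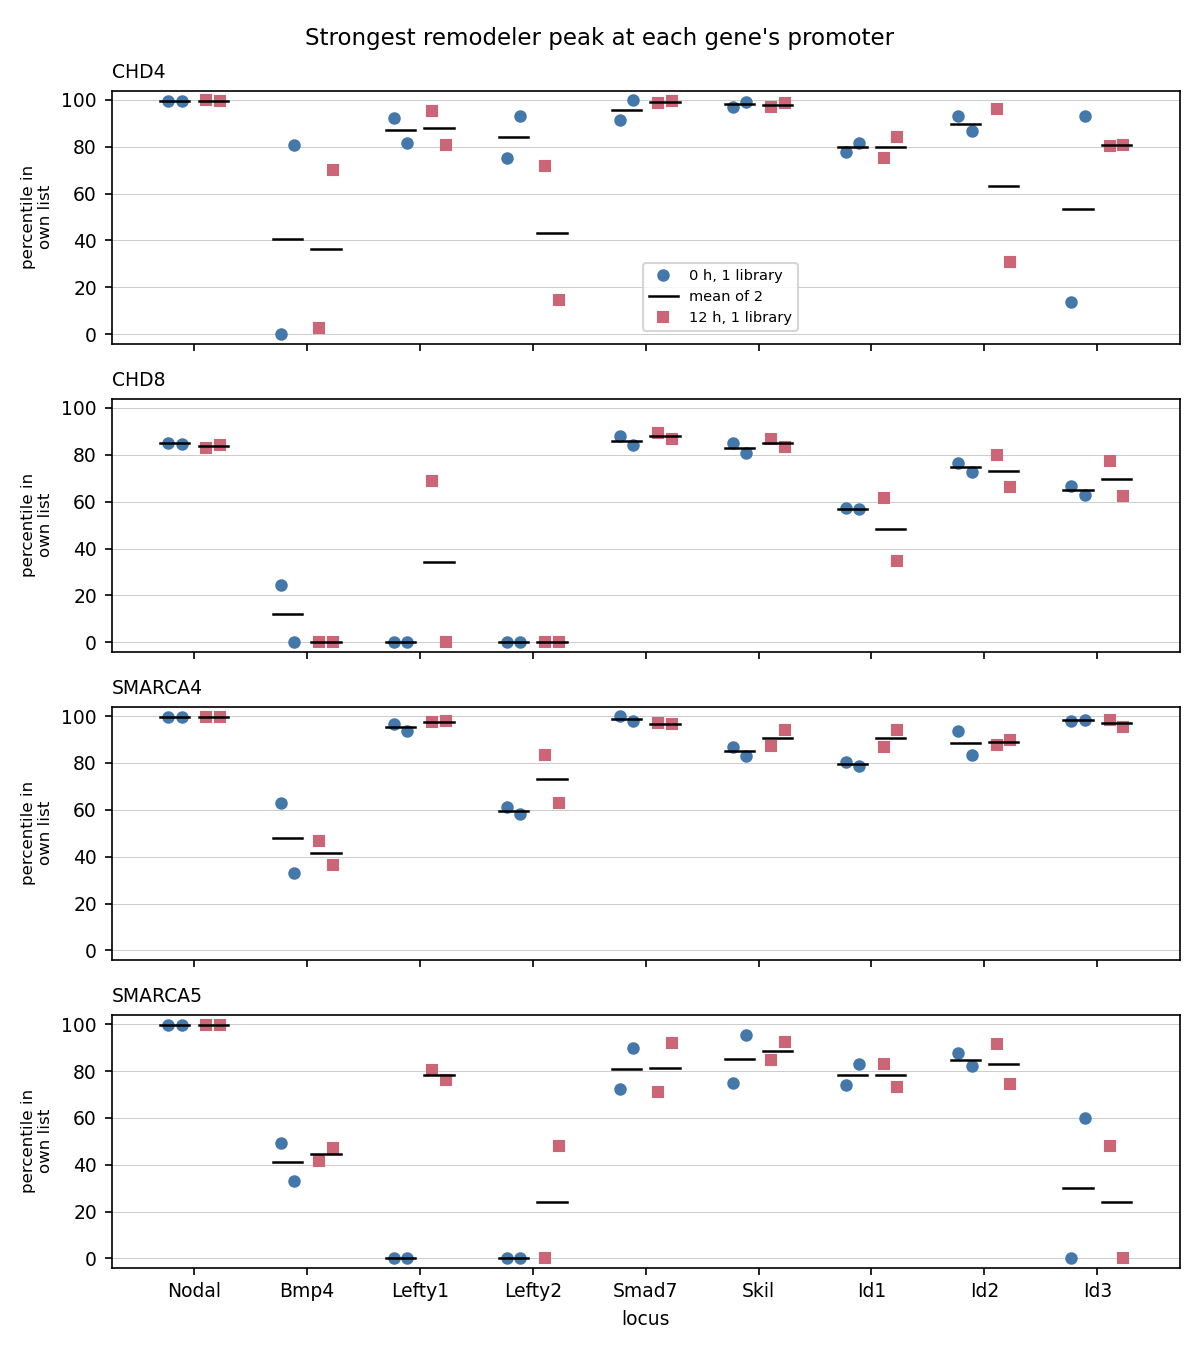
Percentile, within its own list, of the strongest remodeler peak at each promoter (y axis; 0 where none is listed), by locus (x axis), in 4 panels by remodeler. Circles are 0 h and squares 12 h libraries, 2 of each, and bars their mean. Nodal lies above 99.5 in CHD4, SMARCA4 and SMARCA5 at both times, and the SMARCA5 squares of Lefty1 lie at 80.5 and 76.3 above circles at 0.

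Nodal (ENSMUSG00000037171.6, chr10:61417972-61425338, plus strand) had the most strongly ranked promoter of the 9. The CHD4 peak at its promoter was at percentiles 99.6 and 99.7 at 0 h and 99.8 and 99.6 at 12 h, with fold enrichments of 18.0 and 16.1, then 15.6 and 12.0. The SMARCA4 peak was at 99.6 and 99.6, then 99.6 and 99.7. The SMARCA5 peak was at 99.5 and 99.8, then 99.7 and 99.6. Between 99.5 and 99.9% of all genes had a lower mean percentile in each of these 3 remodelers at either time. CHD8 was the exception, at 85.1 and 84.7 at 0 h and 83.0 and 84.1 at 12 h, where 67.8% and 65.6% of genes lay lower. Genes without a CHD8 promoter peak count as lower here. Among bound promoters, Nodal lay below the median (84.7 to 87.6 by library) in each CHD8 library, by 84.69 against 84.70 in the second 0 h one. Both CHD8 values at 12 h were below both at 0 h, by 1.35 percentile points on average. Over the 4 remodelers the mean change was −0.33 percentile points (exact permutation p = 0.185).

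Those values come from a broad bound stretch. A region 1.49 kb upstream of Nodal (chr10:61416257-61416708, intergenic) had a peak in all 16 libraries and was part of the promoter's own peak in 15 of them, with percentiles of 79.8 to 85.1 in CHD8 and 99.5 to 99.8 elsewhere. In the window of 47.4 kb, CHD4 had 14 and 30 summits at 0 h and 14 and 33 at 12 h. CHD8 had 10 and 3, then 7 and 3. The SMARCA4 counts were 13 and 8, then 17 and 13, and those of SMARCA5 7 and 9, then 13 and 13. Per 100000 listed peaks SMARCA5 went from 12.6 and 12.3 to 18.3 and 19.4, so its times did not overlap, while those of the 3 others did. With 2 libraries per time, such a separation in a single remodeler cannot reach a p of 0.05 by exact permutation, here or at the other loci. Its share over all genes was not counted. The mean log2 change over remodelers was 0.19 (exact permutation p = 0.367). Without the second 0 h library of CHD8 it was 0.03.

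The far upstream end of the Nodal window differed from the promoter. A region 15.2 kb upstream (chr10:61402400-61403207, intergenic), which holds the CTCF peak 15.3 kb upstream and a SMC1A peak that overlaps it, neither listed at 12 h, was listed in both 0 h libraries of CHD4 (percentiles 77.4 and 94.2) and of SMARCA4 (35.3 and 35.3), and in none of their 12 h libraries. It was the single region of all 9 loci lost in both libraries of 2 remodelers. CHD8 listed it in 1 of 2 libraries at 0 h and none at 12 h, and SMARCA5 in 1 at either time. Nodal also had 2 further regions lost in CHD4, and 4 gained in SMARCA4 and 4 in SMARCA5.

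**Figure D4:**
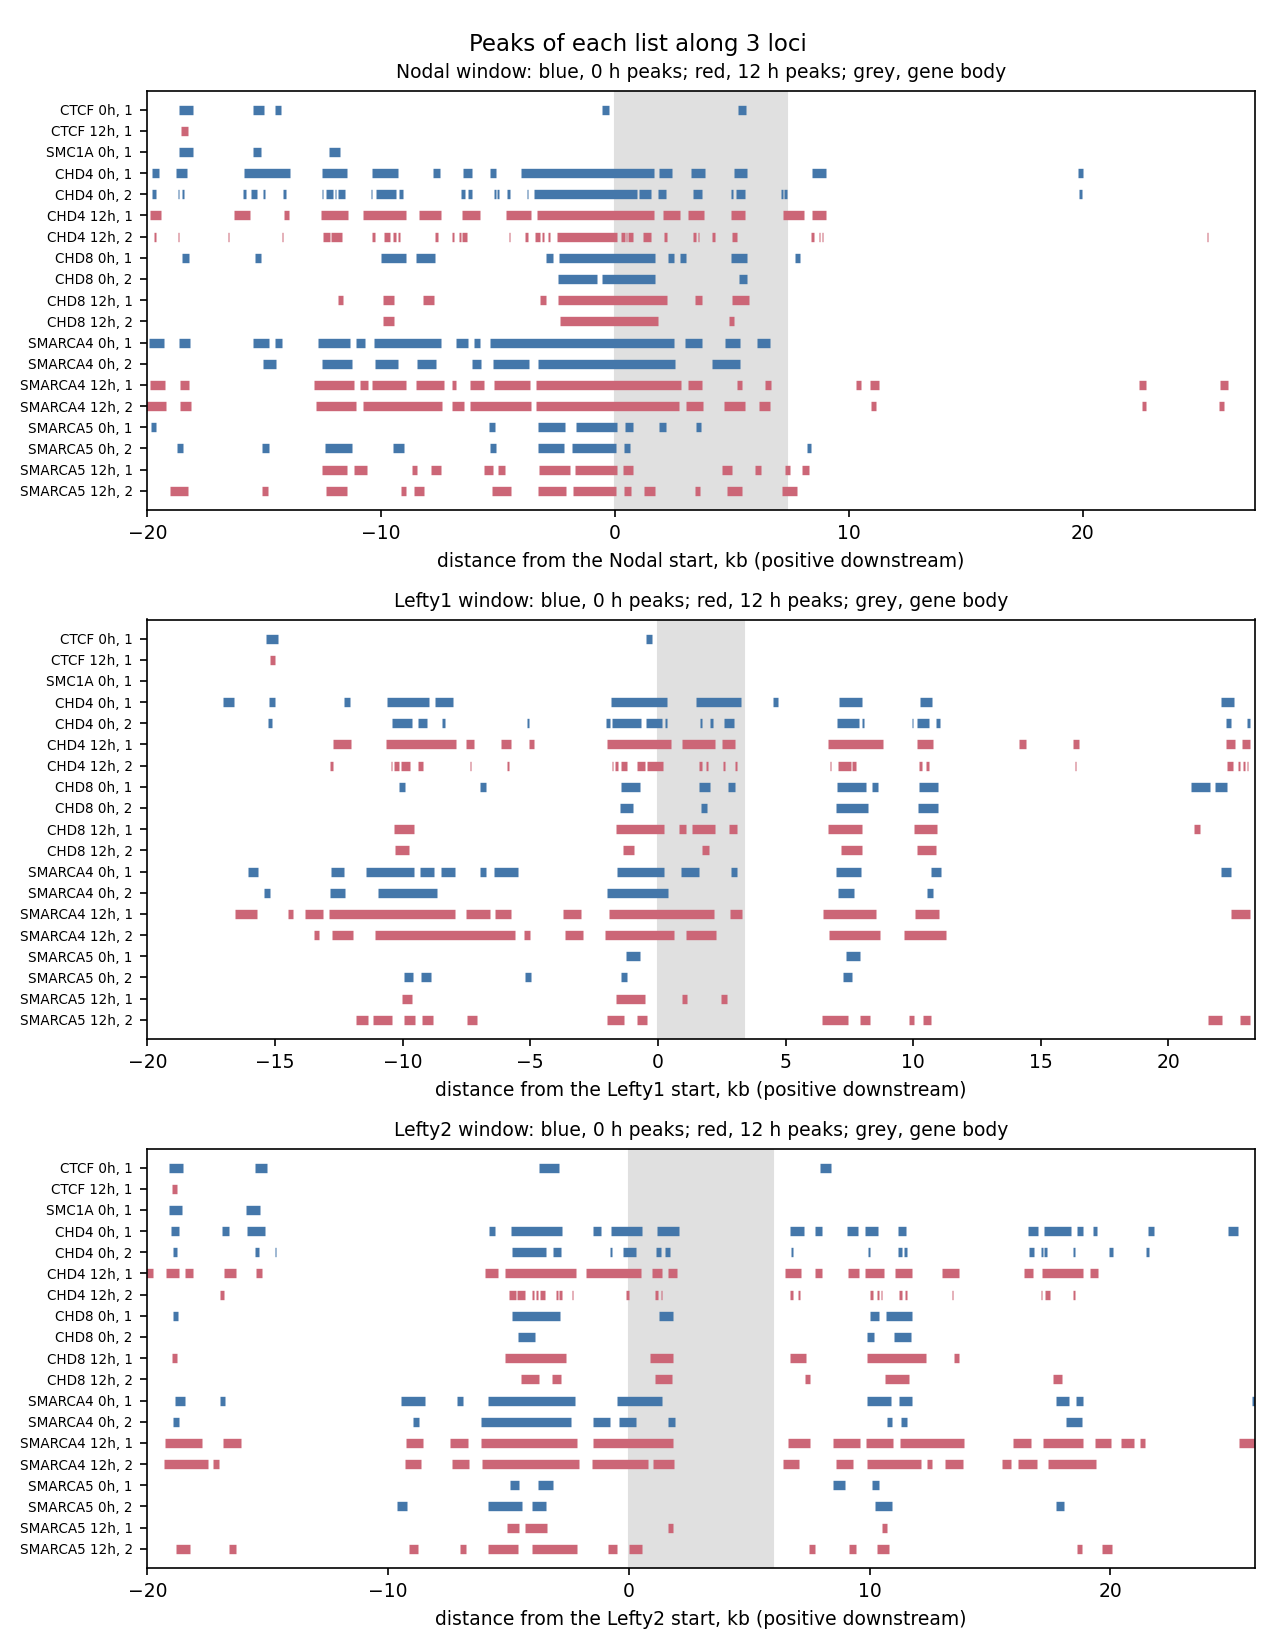
Peaks of 19 of the 20 lists (rows; the 12 h SMC1A list has none here) along the Nodal, Lefty1 and Lefty2 windows, by distance from the gene start in kb (x axis). Blue bars are 0 h and red bars 12 h peaks, and grey the gene body. SMARCA4 covers more of the Lefty2 window at 12 h (46.5 and 40.0%) than at 0 h (21.4 and 15.5%).

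Bmp4 (ENSMUSG00000021835.15, chr14:46383520-46390669, minus strand) had a promoter that the lists rank low. It had a listed peak in 6 of 8 libraries at 0 h and 6 of 8 at 12 h. CHD8 listed a peak there in 1 of 4 libraries, at percentile 24.3. SMARCA4 was at 63.1 and 33.1 at 0 h and 46.7 and 36.3 at 12 h, and SMARCA5 at 49.1 and 32.9, then 41.7 and 47.3. CHD4 listed no peak in the first 0 h library and one at percentile 80.8 in the second, then 2.82 and 70.2, so the 2 libraries of a time differed more than the times. On average the rank changed by −4.79 percentile points (exact permutation p = 0.588). The most widely bound place of the locus was an intronic region 3.16 kb downstream of the start (chr14:46386903-46388121), with a peak in 15 of 16 libraries. Window counts were 10 and 23 for CHD4 at 0 h and 10 and 13 at 12 h, and between 1 and 11 for the other remodelers.

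Lefty1 (ENSMUSG00000038793.8, chr1:180935022-180938400, plus strand) had the largest mean difference of the 9 with promoters of 500 bp to either side. SMARCA5 listed no peak at its promoter in either 0 h library and one at percentiles 80.5 and 76.3 in the 12 h libraries. CHD8 listed none at 0 h and one in 1 of 2 libraries at 12 h, at 68.9. CHD4 was at 92.3 and 81.5 at 0 h and 95.2 and 80.8 at 12 h, and SMARCA4 at 96.8 and 93.8, then 97.6 and 97.7. The mean change was 29.1 percentile points, higher in all 4 remodelers (exact permutation p = 0.0370, 1 after Benjamini-Hochberg adjustment over all genes).

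The 2 SMARCA5 peaks behind this value touch the promoter window only at its edge. They end 495 and 443 bp upstream of the start, and their summits lie 1494 and 643 bp upstream. At 0 h SMARCA5 was listed in the same upstream stretch: a region 1.47 kb upstream (chr1:180932996-180934105, intergenic) had a peak in all 16 libraries, with SMARCA5 percentiles of 88.0 and 34.4 at 0 h and 80.5 and 78.2 at 12 h. The mean change was 9.46 points with promoters of 250 bp to either side (exact permutation p = 0.222), below those of Id3 (17.8) and Id1 (10.3), and 11.5 with 1000 bp (p = 0.427 in the same exact test). Without the first 12 h library of CHD8 it was 20.5.

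Lefty2 (ENSMUSG00000066652.5, chr1:180893108-180899103, plus strand) had promoter values on both sides of those at 0 h, depending on the remodeler. CHD4 at the Lefty2 promoter was at 75.3 and 93.0 at 0 h and 71.7 and 14.8 at 12 h, and SMARCA4 at 61.0 and 58.3, then 83.3 and 63.1. CHD8 had no promoter peak in any library and SMARCA5 in 1 of 4. Over the 4 remodelers the change averaged −0.86 percentile points (exact permutation p = 0.944). The lowest CHD4 value belongs to the library of 94 bp peaks, where the promoter peak is 124 bp wide. The place bound in all 16 libraries lay 3.42 kb upstream (chr1:180889009-180890371, intergenic) and holds a CTCF peak that was not listed at 12 h. SMARCA4 was there at percentiles 97.6 and 95.4 at 0 h and 99.2 and 99.2 at 12 h, and SMARCA5 at 10.9 and 89.4, then 94.1 and 98.9. In both remodelers each 12 h value lay above each 0 h value.

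The upstream 250 bp of both genes are shown because the sequences are close relatives while their promoter peaks are not the same. They are GRCm38 sequences of RefSeq, plus strand, ending at the base before the annotated start. Capitals mark CAGAC, a short sequence bound by SMAD proteins.
Lefty1, chr1:180934772-180935021: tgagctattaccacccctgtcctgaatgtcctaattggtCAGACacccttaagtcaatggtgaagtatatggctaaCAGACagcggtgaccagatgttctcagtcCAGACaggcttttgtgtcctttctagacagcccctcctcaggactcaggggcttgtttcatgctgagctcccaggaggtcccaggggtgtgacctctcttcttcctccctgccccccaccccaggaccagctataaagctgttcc
Lefty2, chr1:180892858-180893107: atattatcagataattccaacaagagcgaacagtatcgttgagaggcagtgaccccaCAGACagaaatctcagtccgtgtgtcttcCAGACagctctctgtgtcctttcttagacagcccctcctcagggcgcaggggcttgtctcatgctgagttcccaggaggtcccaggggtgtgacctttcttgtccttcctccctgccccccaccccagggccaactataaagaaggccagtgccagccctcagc

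Of 213 bases that align between the pair, 184 (86.4%) are identical. CAGAC occurs 3 times upstream of Lefty1 (first base 211, 174 and 145 bp before the start) and 2 times upstream of Lefty2 (193 and 164 bp before it). On either strand CAGAC was found upstream of 6 of the 9 genes (both Lefty genes, Skil, Id1, Id2 and Id3), and in 40.5% of 41438 upstream windows of 250 bp. GGCGCC, a motif of BMP-responsive promoters, was found upstream of 2 of the 9 (Smad7 and Skil) and in 12.5% of all windows. AATCCACA, a form of the FOXH1 motif, was found upstream of none, and in 0.635% of all. A match describes letters in this window and no binding.

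In the Lefty windows SMARCA4 covered more sequence at 12 h. At Lefty2 its peaks covered 9818 and 7122 bp at 0 h and 21389 and 18416 bp at 12 h, that is 21.4 and 15.5%, then 46.5 and 40.0% of the window. At Lefty1 they covered 9603 and 6344 bp at 0 h and 17391 and 14921 bp at 12 h. Both 12 h values exceeded both 0 h values at either gene. The same order held at Smad7, Bmp4, Id1 and Id3, so it is not particular to the Lefty windows. It did not hold at Nodal, Skil or Id2, and its share over all genes was not counted. The SMARCA4 lists as a whole covered 90.3 and 63.6 Mb at 0 h and 89.9 and 95.7 Mb at 12 h, and the part of these totals in the difference was not tested. For SMARCA4 alone the design, with 2 libraries per time, cannot reach a p of 0.05 by exact permutation. When covered base pairs replaced summits in the test over all 4 remodelers, the mean log2 change was 0.57 at Lefty1 (exact permutation p = 0.0201) and 0.55 at Lefty2 (p = 0.0833 in that exact test), with adjusted p of 0.363 and 0.539.

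By summits, Lefty2 had 19 and 19 CHD4 peaks at 0 h and 18 and 23 at 12 h. Its CHD8 counts were 5 and 3, then 6 and 6, its SMARCA4 counts 10 and 9, then 15 and 15, and its SMARCA5 counts 4 and 5, then 4 and 13. The scaled share was higher on average in all 4 remodelers, with a mean log2 change of 0.42 (exact permutation p = 0.0509, adjusted p = 0.653). It was 0.21 without the second 12 h library of SMARCA5, which holds the count of 13. At Lefty1 the counts were 11 and 19, then 14 and 26 for CHD4, 10 and 4, then 8 and 5 for CHD8, and 13 and 6, then 12 and 9 for SMARCA4. SMARCA5 had 2 and 5 summits at 0 h and 4 and 13 at 12 h. The mean log2 change at Lefty1 was 0.35 (exact permutation p = 0.231), and 0.14 without the same SMARCA5 library.

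Windows were also divided into regions, built by merging all summits with 100 bp to either side, which gave 371 different regions in the 9 windows. A region counts as lost where both 0 h libraries of a remodeler and neither 12 h library had a peak, and as gained in the opposite case. SMARCA4 gained 37 and lost 2 of the 318 regions with a SMARCA4 peak (11.6 and 0.629%), where the whole genome gave 6.57 and 1.72%. SMARCA5 gained 19 and lost 2 of 214 (8.88 and 0.935%), against 4.36 and 3.13% in the genome. CHD4 gained 13 and lost 9 of 288 (4.51 and 3.13%), against 2.73 and 5.91%. CHD8 gained 2 and lost 1 of its regions (1.32 and 0.662%), against 3.93 and 3.27%. CHD4 lost more regions than it gained in the genome and gained more than it lost at the loci. That order at the loci did not hold under other settings. CHD4 gained 3 and lost 11 with peaks of −log10 q of at least 5, and gained 5 and lost 5 with regions of 250 bp to either side. Genome shares were not computed for these settings. Without its first 12 h library CHD4 gained 21 and lost 41. These are counts over neighbouring regions of the same libraries, with no test.

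**Figure D5:**
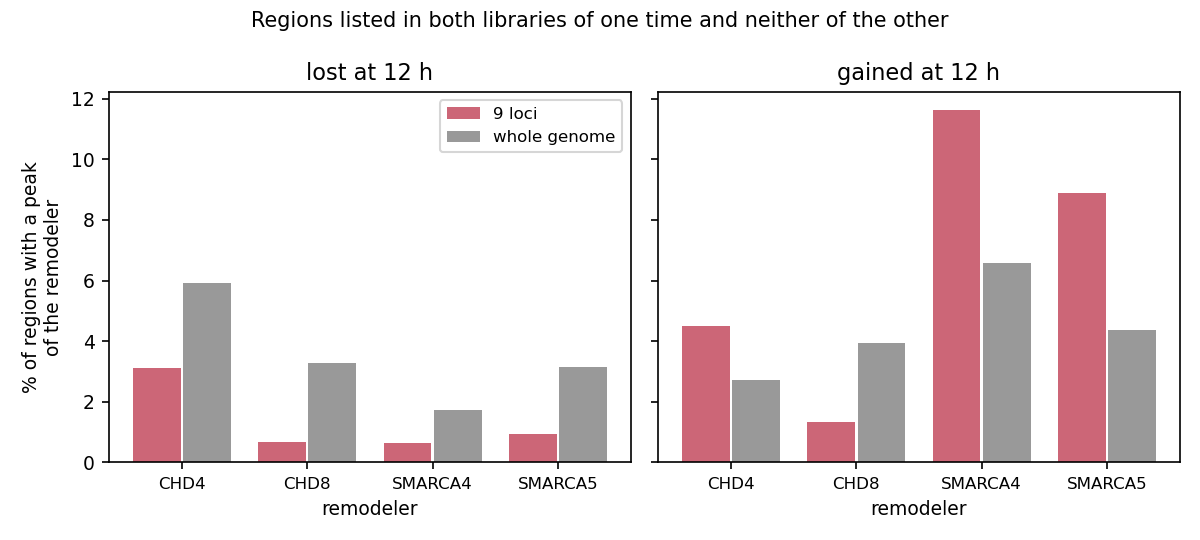
Percentage of the regions with a peak of each remodeler (x axis) that were lost (left) or gained (right) at 12 h in both libraries, in the 9 loci and in the whole genome (y axis, starting at 0). SMARCA4 gains stand at 11.6% in the loci and 6.57% in the genome, and with all libraries the losses of all 4 remodelers stand lower in the loci. The loss share of the loci exceeded that of the genome without the first 12 h library of CHD4 (16.02 against 15.38%) and without the second 0 h library of CHD8 (16.8 against 14.8%).

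The SMARCA4 gains were most numerous in 3 windows: 12 of 43 regions at Lefty2, 7 of 29 at Id1 and 6 of 37 at Lefty1, against none of 26 at Skil. SMARCA5 gains were most numerous at Smad7, with 7 of 57. The counts depend on the definition. With regions of 250 bp to either side, SMARCA4 gained 11 and SMARCA5 6. Genome shares were not computed at this width, so the loci cannot be set beside the genome there. With 1 SMARCA4 library left out at a time, the gained share at the loci was 13.5 to 27.8%, and that of the genome 9.36 to 18.3%. It was above the genome's in 3 of these 4 cases, and without the first 12 h library it was 18.1% against 18.3%. With 1 SMARCA5 library left out at a time, 21 to 63 regions were gained (10.3 to 32.6%, against 7.01 to 20.03% in the genome) and 5 to 20 were lost.

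Regions gained in both libraries of 2 remodelers numbered 6, of which 1 lies in Smad7 and 4 are described here. At Lefty1 one lay 7.29 kb upstream (chr1:180927522-180927936, intergenic) and one 6.75 kb downstream of the start, 0.692 kb upstream of Tmem63a (chr1:180941667-180941867). Both had no peak of any remodeler at 0 h, and the second had one in 6 of 8 libraries at 12 h. At Id1 the pair lay 17.8 kb upstream and 5.62 kb downstream of the start (chr2:152718371-152718571 and chr2:152741597-152742142, both intergenic). These 4 were gained in CHD4 and SMARCA4. Their CHD4 and SMARCA4 peaks ranged widely in strength at 12 h, from percentile 7.43 (CHD4, second library, downstream of Lefty1) to 97.3 (SMARCA4, second library, upstream of Lefty1).

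Id1 (ENSMUSG00000042745.9, chr2:152736251-152737410, plus strand) had a promoter peak in all 16 libraries. SMARCA4 lay at percentiles 80.4 and 78.7 at 0 h and 86.7 and 94.2 at 12 h, both 12 h values above both 0 h values. The summits of these SMARCA4 peaks lay upstream of the promoter window in each library. The region 1.38 kb upstream, described below, has the same SMARCA4 percentiles, so the promoter and that region are not separate observations of SMARCA4. CHD4 was at 75.3 to 84.2 and SMARCA5 at 73.1 to 83.2 over both times, with overlapping values, and CHD8 at 57.3 and 56.8, then 61.5 and 34.8. Averaged over remodelers, the change was 0.412 percentile points (exact permutation p = 0.931). SMARCA5 had 2 and 5 summits in the window at 0 h and 8 and 8 at 12 h, and the other remodelers 5 to 24 over both times. The mean log2 change was 0.36 (exact permutation p = 0.100). By covered base pairs it was 0.57 (p = 0.00772 in the exact test, adjusted p = 0.299). A region 1.38 kb upstream (chr2:152734631-152735113, intergenic) was listed in all CHD4, CHD8 and SMARCA4 libraries, and in SMARCA5 in neither library at 0 h and both at 12 h, at percentiles 19.1 and 30.4.

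Id2 (ENSMUSG00000020644.9, chr12:25093799-25097140, minus strand) also had a promoter peak in all 16 libraries. SMARCA4 was at 93.5 and 83.3 at 0 h and 87.7 and 89.9 at 12 h. CHD8 was at 66.1 to 80.1 and SMARCA5 at 74.6 to 91.7 over both times. CHD4 was at 92.9 and 86.6, then 95.9 and 30.7. These CHD4 values come from peaks at different places. Their summits lay 318 and 1488 bp downstream of the gene start at 0 h, then 1526 bp upstream and 751 bp downstream. The low value was again in the library of 94 bp peaks. The mean change was −7.33 percentile points (exact permutation p = 0.542), and 0.82 without that library. SMARCA5 summits in the window numbered 5 and 6 at 0 h and 9 and 9 at 12 h, and the mean log2 change over remodelers was 0.11 (exact permutation p = 0.472). Without the first 12 h library of CHD8 it was 0.013, and without the second 0.21. As at Id1, a region just upstream, 1.57 kb from the start (chr12:25098454-25098965, intergenic), was listed in SMARCA5 in neither 0 h library and in both at 12 h (percentiles 72.0 and 56.3), and in every library of the other 3.

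At Id3 (ENSMUSG00000007872.3, chr4:136143497-136145755, plus strand) a highly ranked SMARCA4 peak reached the promoter in every library. It was at percentiles 98.1 and 98.5 at 0 h and 98.2 and 95.5 at 12 h. These peaks were 4940 to 5466 bp wide, with summits 3493 to 4098 bp downstream of the start. The region 4.27 kb downstream, described below, has the same SMARCA4 percentiles. At 0 h 99.4% of genes and at 12 h 98.2% had a lower mean SMARCA4 percentile. CHD8 was at 62.4 to 77.2 over both times. SMARCA5 listed a promoter peak in 1 of 2 libraries at either time, at 59.8 and 47.9, and CHD4 was at 13.7 and 92.9, then 80.5 and 80.8. The mean change was 6.21 percentile points (exact permutation p = 0.779). In 3 of 4 libraries the highest SMARCA5 percentile of the window lay downstream of the gene, 4.27 kb from the start (chr4:136147453-136148072, intergenic), in a region with a peak in all 16 libraries and a 0 h SMC1A peak. SMARCA5 was there at percentiles 95.1 and 96.5 at 0 h and 99.9 and 99.3 at 12 h. The window share had a mean log2 change of 0.19 (exact permutation p = 0.0540, adjusted p = 0.658). That direction turned when only peaks with a −log10 q of at least 5 were counted (−0.52, exact permutation p = 0.00154, the smallest it can give, adjusted p = 0.736).

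Smad7 (ENSMUSG00000025880.11, chr18:75367529-75395935, plus strand) had the largest share of remodeler peaks of the 9, in the longest window (68.4 kb) and without a CTCF peak. CHD4 had 29 and 53 summits at 0 h and 38 and 42 at 12 h, and SMARCA4 30 and 26, then 33 and 33. CHD8 had 15 and 14, then 23 and 12, and SMARCA5 12 and 21, then 25 and 18. SMARCA4 peaks covered 48.6 and 33.5% of the window at 0 h and 49.1 and 49.3% at 12 h. The mean log2 change in peak share was 0.15 (exact permutation p = 0.227), 0.068 without the first 12 h library of CHD8 and 0.22 without the second. Its promoter was in all 16 lists. SMARCA4 there was at 99.9 and 97.8 at 0 h and 96.9 and 96.4 at 12 h, with fold enrichments of 31.1 and 17.7, then 9.28 and 8.07, so both 12 h percentiles lay below both 0 h percentiles. CHD4 was at 91.3 and 99.8, then 98.5 and 99.4. Its mean promoter change was 0.92 percentile points (exact permutation p = 0.688). Inside the gene, an intronic region 13.0 kb from the start (chr18:75380155-75380885) was listed in all 16 libraries, and another 23.2 kb from it (chr18:75390579-75390965) was gained in CHD4 and SMARCA5 and present in all SMARCA4 libraries.

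Skil (ENSMUSG00000027660.16, chr3:31095058-31122577, plus strand), which has a window of 67.5 kb, similar in length to that of Smad7, had few remodeler peaks. CHD4 had 6 and 13 summits at 0 h and 6 and 10 at 12 h, and each other remodeler 2 to 11. The mean log2 change was −0.05 (exact permutation p = 0.778), and no region was gained in any remodeler, while 1 was lost in CHD4 and 1 in SMARCA5. The promoter had a listed peak in all 16 libraries, with CHD4 at 96.9 to 99.2, CHD8 at 80.9 to 86.8, SMARCA4 at 86.9 and 82.9, then 87.4 and 94.1, and SMARCA5 at 74.9 and 95.2, then 84.7 and 92.6. CHD8 was below the median of bound promoters (84.7 to 87.6 by library) in all 4 of its libraries, with 64.8 and 67.9% of genes at a lower mean. The mean change was 2.82 percentile points (exact permutation p = 0.321). It was 0.28 without the first and 5.37 without the second 0 h library of SMARCA5. A region 1.11 kb upstream of Skil (chr3:31093678-31094208, intergenic) was also in all 16 lists, and its CHD8 and SMARCA4 percentiles were those of the promoter peaks. The remodelers were listed at the start of Skil at both times, where the 0 h CTCF peak (percentile 12.5) had no 12 h counterpart.

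Among 48 other genes of the pathways (ligands, receptors, SMADs and cofactors, extracellular antagonists and further targets), 2 had a lower and 2 a higher window share at an unadjusted p of at most 0.05, and none passed after adjustment. The lower ones were the ligands Bmp2 (log2 −0.76) and Inhba (−1.12), and the higher ones the corepressor Ski (0.38) and the common mediator Smad4 (0.41). Their unadjusted exact permutation p values were 0.0123, 0.00463, 0.00309 and 0.0247 in that order. The median change over the 48 was −0.08, near the −0.07 of all genes. At promoters 3 were higher and none lower: the type II receptor Bmpr2 (3.51 percentile points), the BMP antagonist Chrd (7.88) and the Nodal target Gsc (21.6), with unadjusted exact permutation p values of 0.0448, 0.0324 and 0.0185. The median promoter change over the 48 was 2.69 percentile points, against 0 over all genes. Of the 48, 36 to 47 had a promoter peak in a library, against 42.2 to 64.55% of all genes. Promoters without a peak score 0, so these medians rest on unlike shares of bound promoters. The backgrounds are those given above for the 9 genes (4.66 and 2.93% for windows, 1.46 and 2.79% for promoters).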

How the data were processed

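The 20 deposited lists (10 narrowPeak columns, 1 library each) were analysed, and the 10 input samples were not analysed here. Per the submitters' processing notes, Trim Galore, Bowtie2, MACS2 and deepTools were used, with mm10 among the builds named; versions, roles, thresholds and the caller's control are not given in the sources used here. Column 7 of the deposited lists was read as fold enrichment, a ratio, and columns 8 and 9 as −log10 p-value and −log10 q-value, from the layout and the values. The lists were taken as deposited, the lowest −log10 q being 1.30. All peaks fit GRCm38.

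The 9 genes, the 48 pathway genes, the motifs and the tests were chosen with earlier results of these data known. All members were named, as were regions lost or gained in at least 2 remodelers (1 is not reported here) and the most widely bound region of each locus over 1 kb from a start. Remodeler libraries were compared by exact two-sided stratified permutation (1296 relabellings, smallest p 0.00154) over all genes or CTCF sites, with Benjamini-Hochberg adjustment and p-values as computed here. Overlap meant at least 1 bp. The promoter motif search used RefSeq sequence of GRCm38.p6 with GENCODE M21 starts. The permutation test was tested on simulated counts. Alternatives covered peak filters, window and promoter widths, list scaling, blocking by replicate number and the removal of single libraries. The split of motif matches by soft-masked sequence (over 50% of the match) was added after values were seen. Python 3.11.15, numpy 2.4.6, pandas 2.3.3, scipy 1.17.1, pysam 0.24.0 and matplotlib 3.10.9 were used.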

Additional observations from a re-analysis of the deposited data

Results flagged for a closer look

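At the Lefty2 promoter, the ranks of CHD4 and SMARCA4 at 12 h lay on opposite sides of those at 0 h. Both 12 h CHD4 values (71.7 and 14.8) lay below both 0 h values (75.3 and 93.0), a mean change of −40.9 percentile points, while both 12 h SMARCA4 values (83.3 and 63.1) lay above both 0 h values (61.0 and 58.3), a mean change of 13.5 points. The gap between these changes was 54.5 points, and this difference was not tested. With 2 libraries per time, a separation in a single remodeler cannot reach a p of 0.05 by exact permutation. The percentiles come from lists of different lengths (92456 and 70428 SMARCA4 peaks at 0 h, 96364 and 102636 at 12 h; 105001 to 187294 CHD4 peaks), so they show no change in binding. Ranked among promoters, the mean Lefty2 difference over the 4 remodelers was 1.41, of the opposite sign to that in percentiles (−0.86). The value of 14.8 is that of the second 12 h library of CHD4, whose median peak width is 94 bp, and the part of peak width was not tested. Groups of 2 libraries are too small to look for single outlying libraries.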

How the results depend on the processing

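No gene and no CTCF site was called after adjustment under any alternative or with any library left out. At an unadjusted p of at most 0.05 the window test gave 1666 genes, and 657 with plain counts to 2323 with covered base pairs. The labels do not say what a replicate number stands for, and not every remodeler gave a correlation over 0.1, so libraries were not treated as paired: the deviations of same-numbered libraries correlated at 0.277 (CHD4), 0.199 (CHD8), −0.196 (SMARCA4) and −0.034 (SMARCA5). With a replicate block the calls stayed at 0 (1520 genes at an unadjusted p of at most 0.05 in the window test, 879 in the promoter test and 167 CTCF sites), and with the SMARCA4 numbers crossed, chosen after seeing the data, also at 0 (1831, 906 and 167).

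The share of CTCF peaks with a 12 h peak went from 25 to 5% when 50% overlap was required. The count of regions lost or gained in at least 1 remodeler was 28 with summits widened to 250 bp, 134 with 50 kb windows, and 89 to 123 with 1 library left out (123 without the first 0 h library of SMARCA4), an alternative chosen after seeing the data. No genome share is given for this count, so it describes the loci only. Without the second 0 h library of CHD8 or of SMARCA4, 1 CTCF site of the loci had an unadjusted p of at most 0.05.

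Of 126 changes at the named genes under the alternatives, 14 turned direction, and of 288 with 1 library left out, 32 did. No gene was called under any setting, so all of these were at uncalled values. Skil's window change was 0.017 with plain counts, 0.0067 by covered base pairs and 0.11 with 10 kb windows. Bmp4's was 0.070 with plain counts, 0.0011 by covered base pairs, 0.22 at −log10 q of at least 5, 0.12 with the 40000 strongest peaks and 0.24 with 50 kb windows. At −log10 q of at least 5, Id2's was −0.077 and Id3's −0.52, and with the 40000 strongest peaks Id3's was −0.27. Lefty2's promoter change was 7.28 with 1000 bp promoters and 1.41 ranked among promoters, and Id3's −0.76 with 1000 bp. The cause was not tested. With 1 library left out, window changes spanned −0.17 to 0.067 (Skil) and −0.25 to 0.25 (Bmp4). Promoter changes spanned −7.97 to 6.24 (Lefty2), −1.67 to 3.52 (Smad7), 0.28 to 5.37 (Skil), −14.9 to 5.32 (Bmp4), −2.93 to 3.76 (Id1), −15.5 to 0.82 (Id2) and −3.70 to 16.1 (Id3).

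The lists give no depth, and an unlisted site is not a site without binding.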
